A study of Mus musculus with 9 samples.

Results

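Small extracellular vesicles of mouse serum were examined here for 4 microRNAs known to be induced by inflammatory signalling: mmu-miR-146a-5p, mmu-miR-146b-5p, mmu-miR-155-5p and mmu-miR-132-3p, written below without the mouse prefix mmu. They were chosen by name from the table of 1064 known microRNAs, by a rule that uses no measured value, though with earlier results of these data known, and all 4 were found. With the microRNAs that the files list as predicted, the tables hold 1169. Each of the 4 was among the 414 microRNAs with enough counts to be tested.

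The study compared 3 groups of 3 libraries each. Wild-type mice fed chow are called chow WT, and wild-type mice fed a high fat diet are called HFD WT. The third group, HFD Sirt3 AKI, was fed the same diet and is labelled as overexpressing Sirt3, a mitochondrial deacetylase, specifically in adipose tissue. The promoter that drives the transgene, the age and sex of the mice and the length of the diet are not stated in the sources used here. The library names of HFD WT carry a Sirt3 knock-in code although that group is labelled wild type. A small RNA library does not measure Sirt3 mRNA, so the genotype could not be checked. Nothing in the labels says that replicates came from separate animals, so the p-values below cover the spread between samples alone, which may be technical.

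miR-146 and miR-155 are classic products of NF-kB, the transcription factor that Toll-like receptors and inflammatory cytokines switch on in macrophages, endothelium and adipose tissue. The miR-146 pair represses the adaptors TRAF6 and IRAK1 and so forms a negative feedback loop, whereas miR-155, cut from the long RNA of its host gene in activated myeloid and lymphoid cells, represses brakes such as SOCS1 and the phosphatase SHIP1. miR-132 is driven mainly by CREB, is made from one transcript with miR-212, is abundant in neurons, and is induced early in stimulated monocytes and endothelium. A microRNA in serum vesicles can come from any cell that releases vesicles into blood. In such samples, fewer vesicles from a cell type and less of a microRNA in each vesicle cannot be told apart.

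The mature sequences show which of the counts can be kept apart and which targets can be shared. They are RefSeq entries for the build GRCm38.p6, written 5′ to 3′ with the seed (bases 2 to 8, which pair with targets) in capitals. miR-212-3p is added as the partner of miR-132-3p.
miR-146a-5p: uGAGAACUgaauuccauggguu
miR-146b-5p: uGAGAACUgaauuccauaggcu
miR-155-5p: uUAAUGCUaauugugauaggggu
miR-132-3p: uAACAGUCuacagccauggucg
miR-212-3p: uAACAGUCuccagucacggcca

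The miR-146 sequences share their seed and differ by 2 substitutions near the 3′ end, G18A and U21C, counted from the 5′ end with the base of miR-146a-5p first. The first 17 bases are identical, so a read that ends there belongs to both. miR-132-3p and miR-212-3p also share a seed and differ by 5 substitutions, A10C, C14U, U17C, U20C and G22A. No other mature microRNA of the RefSeq table carries the seed of miR-155-5p. The seed of miR-146 was read almost wholly from miR-146a-5p, with 62732 counts over all libraries against 4994 for miR-146b-5p, and that of miR-132 from miR-132-3p, with 1836 counts against 26 for miR-212-3p.

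In GRCm38.p6, miR-146a-5p lies at chr11:43374435-43374456 on the minus strand, in the microRNA gene Mir146, with no other annotated gene over it. miR-146b-5p lies at chr19:46342790-46342811 on the plus strand, within Mfsd13a and outside its annotated exons, so it is intronic. miR-155-5p lies at chr16:84714143-84714165 on the plus strand, in an exon of the long noncoding RNA Mir155hg. miR-132-3p lies at chr11:75173723-75173744 on the plus strand, within the noncoding gene 1700016P03Rik and outside its annotated exons. The hairpin of miR-212 lies upstream, with 203 bases between the 2 hairpins. These positions come from RefSeq and GENCODE, not from the deposited tables.

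Depth differed between the groups, and this touches every comparison with chow. The chow WT libraries totalled 225002 to 306974 counts, against 1953935 to 2162009 for HFD WT and 1729416 to 2973432 for HFD Sirt3 AKI. Depth and diet cannot be told apart here. Levels below are counts per 1000000 of the library total after scaling by TMM (a trimmed mean of log ratios), called normalised CPM, unless TPM is named. TPM is the authors' value per 1000000 of the plain total, with no length term. TMM moved each log2 fold change of HFD WT over chow WT by 0.73 relative to library totals, that of HFD Sirt3 AKI over HFD WT by -0.31 and that of HFD Sirt3 AKI over chow WT by 0.42. Ligation during library making favours some sequences, so levels of different microRNAs are less comparable than levels of one across libraries.

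mmu-miR-146a-5p was the most abundant of the 4 in every library. It was counted 852, 729 and 564 times in the chow WT libraries, which is 2172, 1901 and 1884 normalised CPM. HFD WT libraries counted it 9291, 8306 and 8553 times, at 5165, 5409 and 5674 normalised CPM. Each HFD WT library lay above every chow WT library, as for 30.9% of tested microRNAs. The HFD Sirt3 AKI counts were 16127, 8131 and 10179, at 5808, 4299 and 5326 normalised CPM, a range that overlapped HFD WT and not chow WT (22.9% of tested microRNAs lay wholly above chow WT there). Its rank by level among the 1064 known microRNAs was 54 on chow and 29 in each of the other groups.

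mmu-miR-155-5p went the other way. Chow WT libraries held 337, 263 and 218 counts, at 859, 686 and 728 normalised CPM. Those of HFD WT held 390, 355 and 370, at 217, 231 and 245 normalised CPM. The highest HFD WT library thus lay well under the lowest chow WT library, and 23.9% of tested microRNAs were separated in this direction. With Sirt3 overexpression the counts were 497, 348 and 340, at 179, 184 and 178 normalised CPM, each below every HFD WT library on this scale. By TPM the latter groups overlapped, at 180, 175 and 189 without and 167, 201 and 161 with Sirt3 overexpression. It ranked 87 among known microRNAs on chow, 122 on the diet and 139 on the diet with Sirt3 overexpression.

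mmu-miR-146b-5p was read at 75, 105 and 51 counts in chow WT, at 191, 274 and 170 normalised CPM. HFD WT gave 554, 521 and 627 counts, at 308, 339 and 416 normalised CPM. It lay wholly above chow WT, as for 30.9% of tested microRNAs. The HFD Sirt3 AKI libraries gave 796, 1469 and 796 counts, at 287, 777 and 417 normalised CPM. Replicate 2 of that group held the highest level of all 9 libraries, and replicate 1 lay below every HFD WT library. By TPM chow WT (244, 358 and 227) and HFD WT (256, 257 and 321) overlapped.

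mmu-miR-132-3p was the scarcest of the 4 in every library but replicate 2 of HFD Sirt3 AKI, where miR-155-5p lay below it. Chow WT held 27, 26 and 17 counts, at 68.8, 67.8 and 56.8 normalised CPM. At this depth the 17 counts of replicate 3, at 75.6 TPM, allow 44.0 to 121 per 1000000 of the plain library total, not of the TMM scale. This exact Clopper-Pearson 95% interval covers counting error only, because reads were amplified without molecular identifiers. HFD WT held 204, 200 and 183 counts, at 113, 130 and 121 normalised CPM. These lay wholly above chow WT, as for 30.9% of tested microRNAs. HFD Sirt3 AKI held 325, 530 and 324 counts, at 117, 280 and 170 normalised CPM, with replicate 2 again the highest of all libraries. By TPM the HFD WT libraries stood at 94.4, 98.6 and 93.7 and those of chow WT at 88.0, 88.7 and 75.6, which is a much smaller gap.

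**Figure D1:**
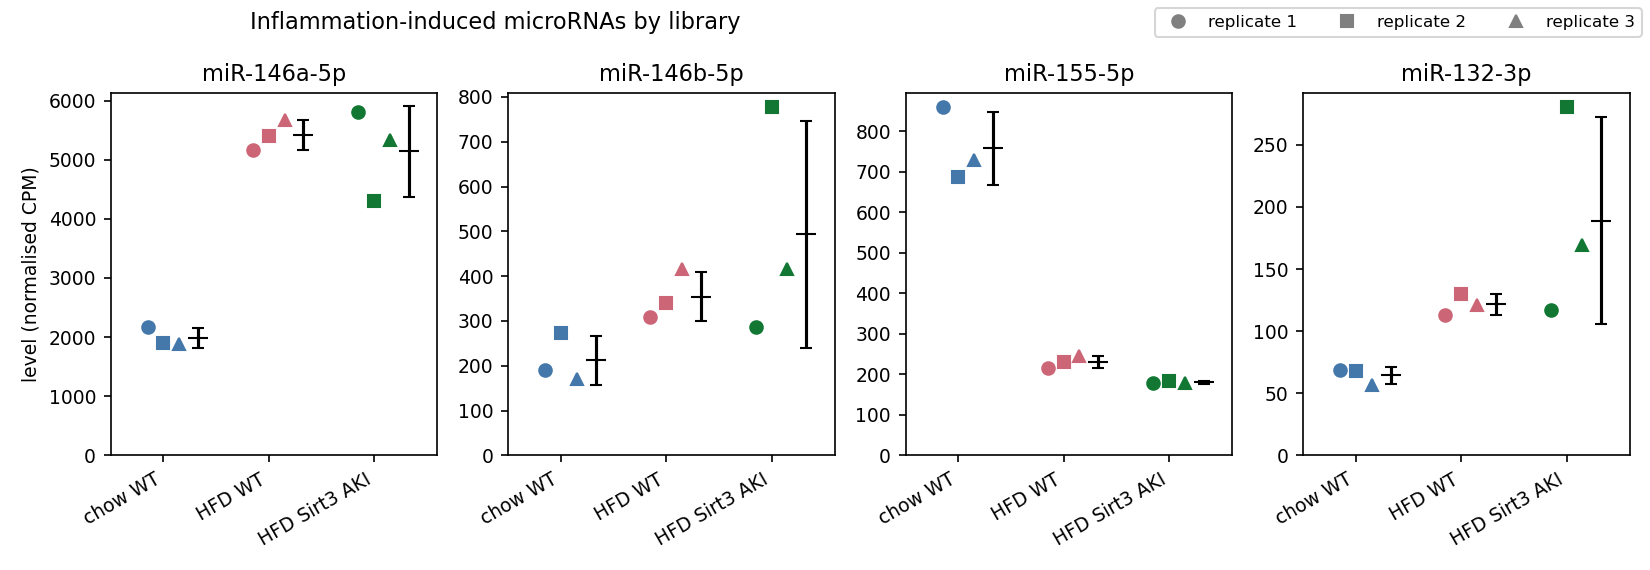
Level of each microRNA in normalised CPM (vertical axes from 0, each with its own range) in the 3 libraries of chow WT, HFD WT and HFD Sirt3 AKI (marker shape gives the replicate), with the group mean and SD as a black bar. miR-146a-5p has means of 1986, 5416 and 5145 in that order, miR-155-5p falls from 758 ± 90.2 to 231 ± 14.3, and replicate 2 of HFD Sirt3 AKI stands highest for miR-146b-5p and miR-132-3p.

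The diet comparison asks how the vesicle microRNAs of wild-type mice differ between high fat diet and chow. Of the 4 microRNAs, miR-146a-5p and miR-132-3p rose, miR-155-5p fell, and miR-146b-5p did not pass the test. A microRNA passed at an adjusted p below 0.05 in edgeR's quasi-likelihood test with Benjamini-Hochberg adjustment over all 414 tested. Among all tested microRNAs 37.7% passed in this comparison, 21.5% higher and 16.2% lower, so a pass on its own was common. Scaling by library totals in place of TMM turned the 89 higher and 67 lower calls into 20 and 143.

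miR-146a-5p rose from 1986 ± 161 to 5416 ± 254 normalised CPM (SD, n = 3), a log2 fold change of 1.45 (SE 0.13, 95% interval 1.15 to 1.74, edgeR adjusted p = 1.33e-05), or 2.73-fold. This microRNA, the feedback inhibitor of Toll-like receptor signalling, passed the test under all 20 alternatives tried, with log2 fold changes from 0.72 to 1.66. The lower end came from library totals. Its change was well above the median of all tested microRNAs, which was 0.15.

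miR-155-5p fell from 758 ± 90.2 to 231 ± 14.3 normalised CPM, a log2 fold change of -1.71 (SE 0.14, 95% interval -2.02 to -1.41, edgeR adjusted p = 8.11e-06), or 3.28-fold lower. It passed under all 20 alternatives, from -2.44 to -1.50. Its raw counts changed little between the groups while depth rose. Summed over the group, miR-155-5p had 818 counts on chow and 1115 on the diet, a ratio of 1.36, while the summed library totals rose 7.45-fold. The median ratio of summed counts over the 414 tested microRNAs was 5.0, and 42 of them had a lower ratio than miR-155-5p. The part of depth in this decrease was not tested, nor was that of reads that do not scale with the RNA of a library, and both bear on the ratios to miR-155-5p given below. In HFD Sirt3 AKI, libraries of 2973432, 1729416 and 2109438 counts held 497, 348 and 340 of miR-155-5p, at 167, 201 and 161 TPM. That span of depth is far narrower than the one between chow WT and HFD WT.

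miR-132-3p rose from 64.5 ± 6.68 to 122 ± 8.41 normalised CPM, a log2 fold change of 0.91 (SE 0.31, 95% interval 0.23 to 1.59, edgeR adjusted p = 0.0386). This call was not stable. It passed under 8 of 20 alternatives, fell to 0.18 with library totals (adjusted p = 0.748), missed in DESeq2 at 0.81 (adjusted p = 0.0679), and was lost when any 1 library of chow WT or HFD WT, or replicate 3 of HFD Sirt3 AKI, was left out (adjusted p = 0.0502 to 0.112).

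miR-146b-5p had 212 ± 54.7 and 354 ± 55.6 normalised CPM, a log2 difference of 0.74 (SE 0.34, 95% interval -0.0043 to 1.48, edgeR adjusted p = 0.111). It passed under 7 of 20 alternatives and stood at 0.0046 with library totals. Its interval included both no change and the value of its seed partner miR-146a-5p.

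**Figure D2:**
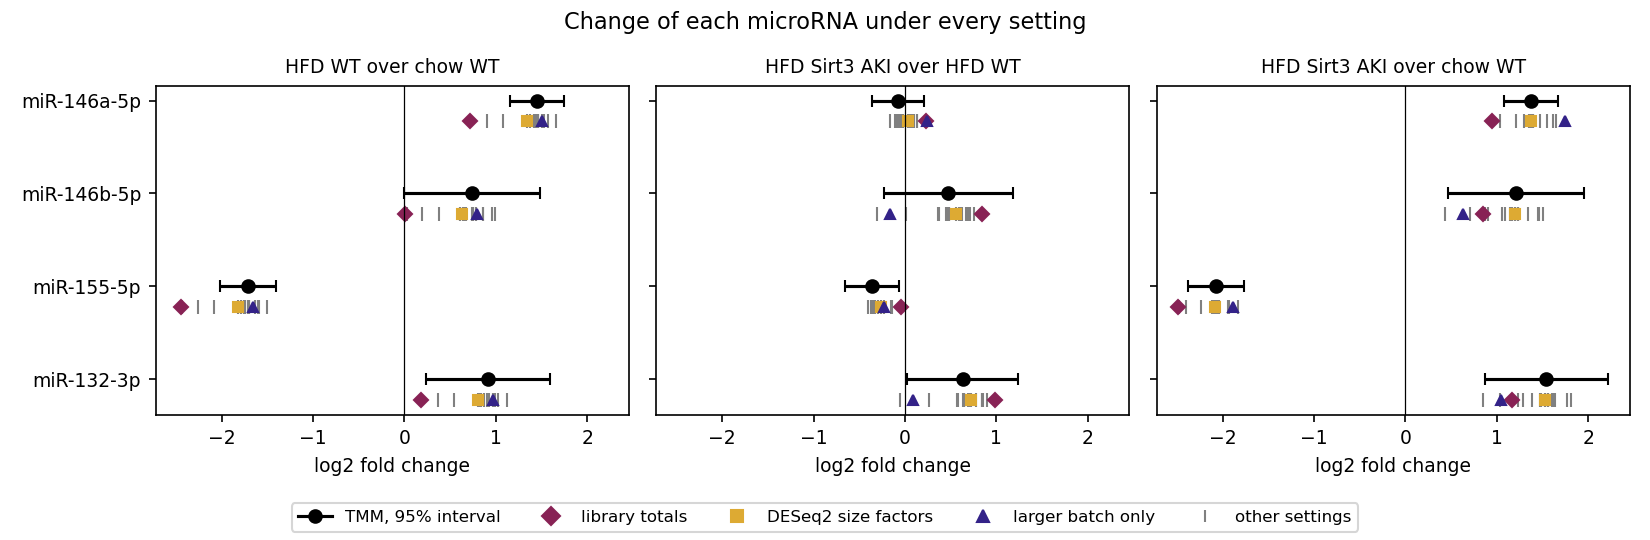
Log2 fold change (horizontal axis) of the 4 microRNAs in the 3 comparisons: black circles give the TMM value with its 95% interval, and the marks under each give the same value under the alternatives, with library totals, DESeq2 size factors and the larger batch alone picked out. For miR-146a-5p and miR-155-5p every mark of the comparisons with chow WT stays on its side of 0, while in HFD Sirt3 AKI over HFD WT the marks of miR-146a-5p, miR-146b-5p and miR-132-3p cross it.

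A ratio of 2 microRNAs counted in one library does not depend on the library total or on scaling. Counts of miR-146a-5p over miR-155-5p stood at 2.53, 2.77 and 2.59 in the chow WT libraries, against 23.8, 23.4 and 23.1 in those of HFD WT. The ratio was 8.92-fold higher on the diet, a mean log2 difference of 3.16, with no overlap and a narrow spread within each group. HFD Sirt3 AKI gave 32.4, 23.4 and 29.9. With 3 libraries against 3 the two-sided exact permutation test cannot go below p = 0.1, and this ratio reached it (adjusted p = 0.12 over the 6 ratios of the comparison).

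miR-155-5p over miR-132-3p stood at 12.5, 10.1 and 12.8 in chow WT and was 6.18-fold lower in HFD WT, at 1.91, 1.78 and 2.02. miR-146b-5p over miR-155-5p stood at 0.223, 0.399 and 0.234 on chow and was 5.54-fold higher on the diet, at 1.42, 1.47 and 1.70. Both ratios kept the groups apart (exact permutation p = 0.1, adjusted 0.12). Chow vesicles thus held more counts of miR-155-5p than of miR-146b-5p, and vesicles of HFD WT held fewer.

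miR-146b-5p over miR-132-3p stood at 2.78, 4.04 and 3.00 for chow WT, 2.72, 2.61 and 3.43 for HFD WT and 2.45, 2.77 and 2.46 for HFD Sirt3 AKI. Chow WT and HFD WT overlapped (log2 difference -0.16, exact permutation p = 0.5, adjusted 0.5). HFD Sirt3 AKI lay narrowly below chow WT without overlap (log2 difference -0.34, exact permutation p = 0.1, adjusted 0.15). Ratios to these scarcer microRNAs were also higher for miR-146a-5p on the diet. The ratio of miR-146a-5p to miR-146b-5p was 11.4, 6.94 and 11.1 on chow against 16.8, 15.9 and 13.6 on the diet, a log2 difference of 0.69. The ratio of miR-146a-5p to miR-132-3p was 31.6, 28.0 and 33.2 against 45.5, 41.5 and 46.7, a log2 difference of 0.53. These ratios did not overlap either (exact permutation p = 0.1, adjusted 0.12), so relative to each of the other 3 microRNAs miR-146a-5p stood higher in every HFD WT library than in any chow WT library.

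**Figure D3:**
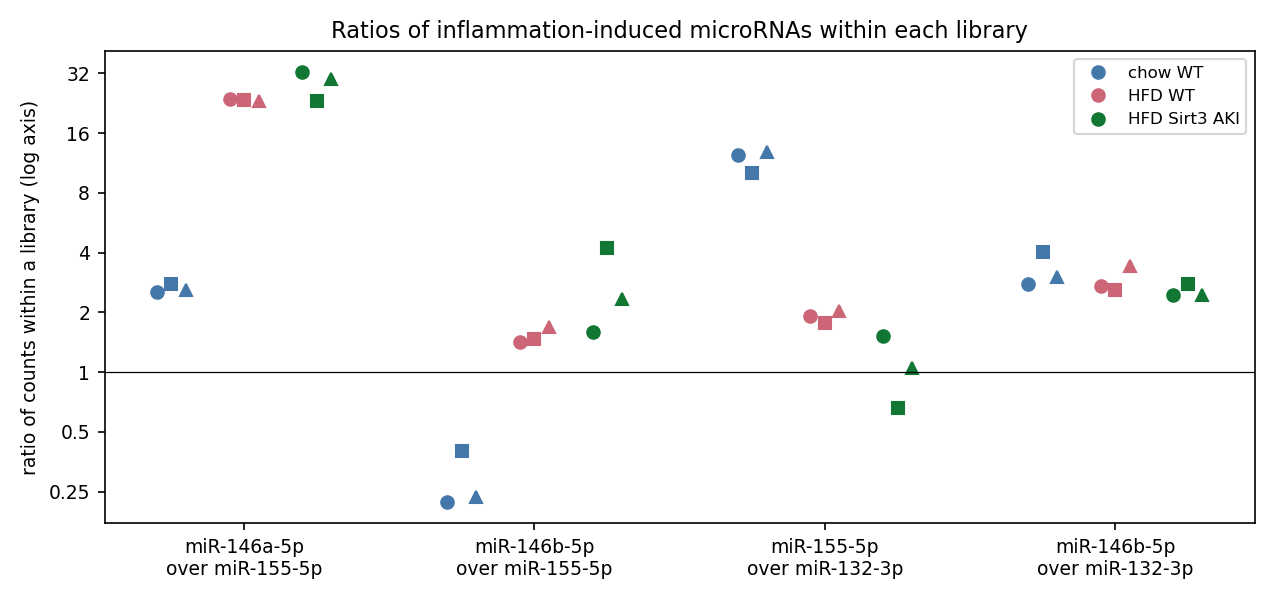
Ratio of the counts of 2 microRNAs within each library (vertical log axis), for 4 of the 6 ratios, with 1 point per library and colours for the groups. miR-146a-5p over miR-155-5p lies between 2.53 and 2.77 in chow WT and between 23.1 and 23.8 in HFD WT, while miR-146b-5p over miR-132-3p overlaps between these 2 groups.

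The Sirt3 comparison asks what adipose Sirt3 overexpression changed in mice on the high fat diet. None of the 4 microRNAs passed the edgeR test, where 8.94% of all tested microRNAs did (1.45% higher and 7.49% lower). At an unadjusted p below 0.05 there were 2 of 4, miR-155-5p and miR-132-3p, against 26.3% of all tested microRNAs, and DESeq2 and limma each called 0. With library totals, the 6 higher and 31 lower calls over all microRNAs became 36 and 11.

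miR-146a-5p had 5416 ± 254 normalised CPM without and 5145 ± 771 with Sirt3 overexpression, a log2 difference of -0.074 (SE 0.13, 95% interval -0.36 to 0.21, edgeR adjusted p = 0.761). Its direction depends on scaling. By TPM the 3 HFD Sirt3 AKI libraries, at 5424, 4702 and 4825, lay above those of HFD WT, at 4297, 4095 and 4377. The share of all tested microRNAs separated in that way by TPM was not counted. With library totals the difference was 0.23 (adjusted p = 0.154). Over the 20 alternatives it ran from -0.16 to 0.24 and passed in 0.

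miR-155-5p had 180 ± 3.24 normalised CPM in HFD Sirt3 AKI, a log2 difference from HFD WT of -0.36 (SE 0.13, 95% interval -0.66 to -0.060, edgeR adjusted p = 0.117). The libraries did not overlap on this scale, as for 17.4% of tested microRNAs in the lower direction. With library totals the difference shrank to -0.042 (adjusted p = 0.871). It stayed below 0 and passed in 0 of 20 alternatives.

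The differences of miR-146b-5p and miR-132-3p depended on which HFD Sirt3 AKI libraries were used. miR-146b-5p had 493 ± 254 normalised CPM, a log2 difference of 0.48 (SE 0.32, 95% interval -0.23 to 1.18, edgeR adjusted p = 0.365), and miR-132-3p had 189 ± 83.3, a difference of 0.63 (SE 0.27, 95% interval 0.026 to 1.24, edgeR adjusted p = 0.173). By TPM miR-146b-5p overlapped HFD WT, at 268, 849 and 377, whereas miR-132-3p stood at 109, 306 and 154, above every HFD WT library. The share of all tested microRNAs separated in that way by TPM was not counted. With library totals the differences were 0.84 and 0.99 (adjusted p = 0.160 and 0.0772). Without replicate 2 they were 0.0091 and 0.26. Without replicate 1 they were 0.76 and 0.89 and both passed (adjusted p = 0.0436 and 0.0145). The labels place replicates 2 and 3 of HFD Sirt3 AKI in a batch apart from the other 7 libraries. With the batch label as a term the differences were -0.31 and -0.055, and within the larger batch they were -0.16 and 0.086. Both settings rest on replicate 1 as the only library of HFD Sirt3 AKI, which is assumed to vary like the libraries of the other groups. The same settings gave miR-146a-5p 0.10 and 0.24 and miR-155-5p -0.37 and -0.23, none of which passed.

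Some brain microRNAs were also highest in replicate 2 of HFD Sirt3 AKI. miR-132-3p is abundant in neurons, and the marker list for brain (miR-9-5p, miR-124-3p, miR-128-3p and miR-129-5p, all 4 detected in each group) summed to 2428 to 3085 normalised CPM on chow, 3669 to 3984 for HFD WT and 4372, 8164 and 5183 in replicates 1 to 3 of HFD Sirt3 AKI. miR-9-5p, a neural microRNA also induced in stimulated monocytes, stood at 105, 3754 and 968 in those 3 libraries, against 131 to 313 in HFD WT and 294 to 686 in chow WT. Replicate 2 was thus highest for miR-9-5p, miR-132-3p and miR-146b-5p alike. The most abundant marker of the list, miR-128-3p, was level across the group, at 4242, 4190 and 4160. By plain library total the brain sums were 3231 to 4035 on chow and 2778 to 3315 for HFD WT, so these groups overlapped on that scale. Between HFD WT and chow WT miR-9-5p did not pass the test (log2 difference -1.05, SE 0.89, edgeR adjusted p = 0.404), with a sign opposite to that of miR-132-3p. High values in replicate 2 were not limited to brain microRNAs. Hepatocyte markers (3 of 3 detected) were also highest there, at 31775 against 9294 in replicate 1. So were epithelial markers (5 of 5 detected), at 15167 against 6890 in replicate 1 and 8619 in replicate 3. Erythroid, myeloid, lymphocyte and adipocyte sums were lowest in replicate 2 among the libraries of its group. The part of other cell types in these values was not tested.

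**Figure D4:**
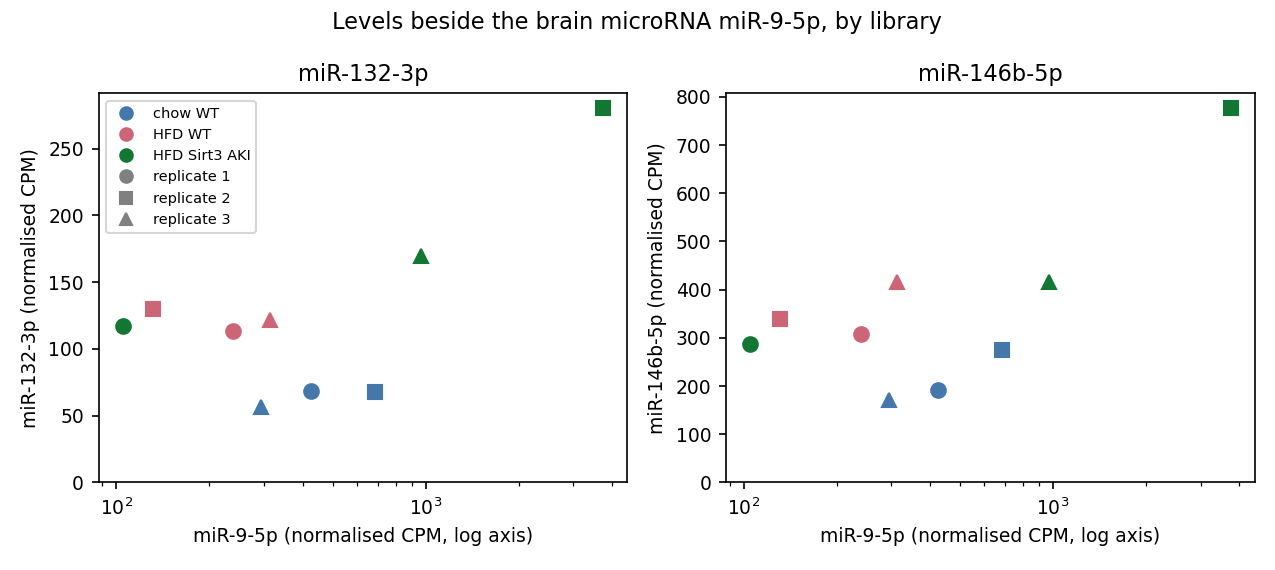
Levels in normalised CPM of miR-132-3p (left) and miR-146b-5p (right) against miR-9-5p (horizontal log axis), 1 point per library, coloured by group and shaped by replicate. Replicate 2 of HFD Sirt3 AKI lies alone at the upper right, with 280 for miR-132-3p and 3754 for miR-9-5p, while chow WT lies below HFD WT for miR-132-3p at miR-9-5p levels of 294 to 686.

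Ratios within libraries were also compared between HFD Sirt3 AKI and HFD WT. miR-155-5p over miR-132-3p was 1.53, 0.657 and 1.05 in HFD Sirt3 AKI, each below every HFD WT library (log2 difference -0.90, exact permutation p = 0.1, adjusted 0.45 over 6 ratios). The other 5 ratios overlapped between these groups (exact permutation p from 0.2 to 0.6, adjusted from 0.45 to 0.6).

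HFD Sirt3 AKI was also set against chow WT. This comparison uses libraries of both others and is no separate evidence. All 4 microRNAs passed the edgeR test, where 39.9% of tested microRNAs did (84 or 20.3% higher and 81 or 19.6% lower, or 40 and 130 with library totals). The log2 fold changes of HFD WT and of HFD Sirt3 AKI over chow WT were 1.45 and 1.37 (SE 0.13, edgeR adjusted p = 1.54e-05 for the latter) for miR-146a-5p. For miR-155-5p they were -1.71 and -2.07 (SE 0.14, adjusted p = 1.69e-06), the latter 4.20-fold lower than chow WT, with no overlap, as for 26.3% of tested microRNAs in that direction. Both microRNAs passed in all 20 alternatives of the second contrast as well. For miR-132-3p they were 0.91 and 1.54 (SE 0.31, adjusted p = 0.00220), and for miR-146b-5p 0.74 and 1.21 (SE 0.34, adjusted p = 0.0142). The last call passed in 14 of 20 alternatives and was lost without replicate 1 or replicate 3 of chow WT (adjusted p = 0.0608 and 0.0541) and, with that of miR-132-3p, when the batch label was a term, which again leaves HFD Sirt3 AKI to replicate 1 (0.43, adjusted p = 0.361, and 0.85, adjusted p = 0.0501).

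Across the 3 groups chow WT was lowest for miR-146a-5p. For it HFD WT and HFD Sirt3 AKI overlapped on the TMM scale, while by TPM every HFD Sirt3 AKI library lay above HFD WT. Chow WT was highest for miR-155-5p. There the mean of HFD WT lay above that of HFD Sirt3 AKI on both scales, with the libraries separated on the TMM scale only. For miR-146b-5p and miR-132-3p the group means were ordered from chow WT through HFD WT to HFD Sirt3 AKI, and the latter groups overlapped on the TMM scale. By TPM miR-132-3p was separated between them and miR-146b-5p was not, with no share over all tested microRNAs counted on that scale. Together the 4 microRNAs took 0.394% ± 0.0233 of the counts of chow WT, 0.481% ± 0.0178 of those of HFD WT and 0.585% ± 0.0290 of those of HFD Sirt3 AKI. miR-146a-5p made up 65.7% of their summed counts on chow, 88.5% for HFD WT and 86.4% for HFD Sirt3 AKI, and miR-155-5p made up 25.1%, 3.77% and 2.97%.

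Each hairpin gives a second arm, which is usually degraded once the first is loaded into Argonaute. Over all libraries miR-146a-3p had 8 counts, 0.0128% of the counts of its hairpin, miR-155-3p had 2 (0.0641%) and miR-146b-3p had 11 (0.220%). miR-132-5p had 164 counts, or 8.20% of its hairpin's counts (exact Clopper-Pearson 95% interval 7.03% to 9.49%). That interval pools the reads of all libraries and leaves out the spread between them. By group the share was 7.89% for chow WT, 5.17% for HFD WT and 9.66% for HFD Sirt3 AKI. Counts of miR-132-5p per library were 3, 1 and 2 for chow WT, 12, 7 and 13 for HFD WT and 16, 92 and 18 for HFD Sirt3 AKI. Most thus came from replicate 2 of the last group, where miR-132-3p was highest too. miR-212-5p, from the neighbouring hairpin, had 4, 17 and 13 counts in HFD Sirt3 AKI and at most 6 in any other library. Of these arms only miR-132-5p and miR-212-5p had enough counts for the test, and neither passed in any of the 3 comparisons.

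The 4 microRNAs were read beside 27 others tied to NF-kB, Toll-like receptor signalling or macrophage activation, of which all 27 were detected and 22 tested. In HFD WT over chow WT 6 of the 22 rose, 4 fell and 12 did not pass, with a median log2 fold change of 0.22 against 0.15 over all tested microRNAs and log2 fold changes from -1.14 to 1.82 among those that did not pass. The list thus moved in both directions, at a share near that of all microRNAs. With library totals 2 rose and 7 fell.

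Those that rose were miR-223-3p (log2 fold change 1.59, SE 0.14), the granulocyte microRNA that restrains neutrophil activation, miR-99b-5p (1.51, SE 0.14), let-7e-5p (1.01, SE 0.13), miR-21a-5p (0.79, SE 0.11), miR-125a-5p (0.75, SE 0.14) and miR-125b-5p (0.74, SE 0.22). miR-99b, let-7e and miR-125a form 1 cluster, at chr17:17830194-17830215, chr17:17830366-17830387 and chr17:17830817-17830840 on the plus strand of GRCm38.p6. miR-99b-5p stood at 385, 472 and 421 normalised CPM on chow and at 1186, 1179 and 1263 on the diet, a change much like that of miR-146a-5p. miR-223-3p and miR-99b-5p passed in all 20 alternatives, let-7e-5p in 18, miR-21a-5p in 17, miR-125a-5p in 16 and miR-125b-5p in 12. The last was lost without replicate 1 or 3 of chow WT or replicate 2 or 3 of HFD WT (adjusted p = 0.0522 to 0.0874).

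Those that fell beside miR-155-5p were miR-187-3p (-1.83, SE 0.25), which is induced by interleukin-10 and restrains cytokine output, miR-181b-5p (-1.05, SE 0.16), which curbs NF-kB in endothelium, miR-221-3p (-0.96, SE 0.12) and miR-301a-3p (-0.94, SE 0.22), which represses an inhibitor of NF-kB. All 4 passed in each of the 20 alternatives. Raw counts of miR-187-3p were 51, 44 and 28 on chow and 51, 55 and 47 on the diet, so here too the counts changed little while depth rose.

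**Figure D5:**
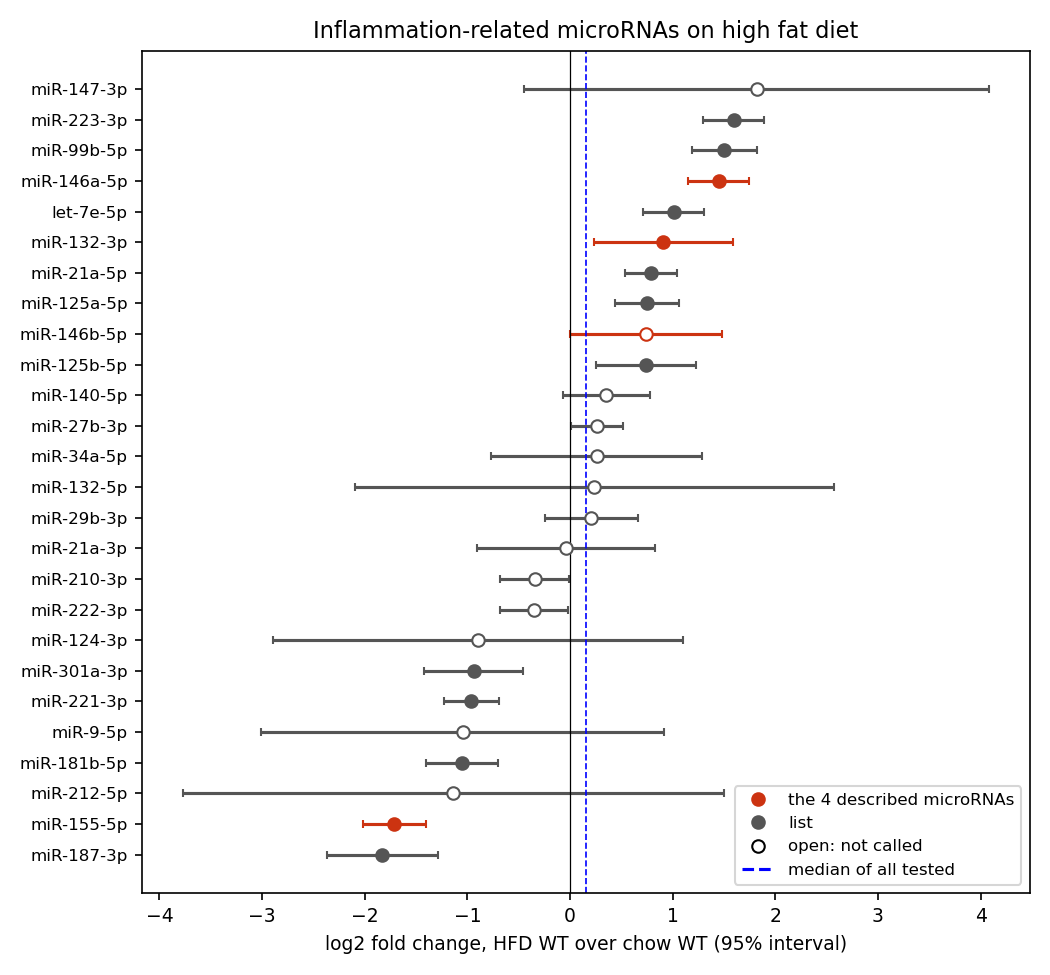
Log2 fold change of HFD WT over chow WT with 95% intervals for the 4 microRNAs (red) and the 22 tested microRNAs of the inflammation list (grey). Filled circles passed the edgeR test, and the dashed line marks the median of all tested microRNAs at 0.15. miR-146a-5p and miR-132-3p lie among the microRNAs that rose, and miR-155-5p lies beside miR-187-3p at the bottom.

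In HFD Sirt3 AKI over HFD WT 1 of the 22 rose and 2 fell, where 8.94% of all tested microRNAs passed, with a median of 0.18 against -0.021 over all tested microRNAs. The 3 were miR-222-3p (0.52, SE 0.15, edgeR adjusted p = 0.0497), the cluster partner of miR-221, miR-140-5p (-0.72, SE 0.18, adjusted p = 0.0335) and miR-301a-3p (-0.78, SE 0.22, adjusted p = 0.0495). Over the 20 alternatives they passed in 8, 4 and 3, and the call of miR-222-3p was lost when any library but replicate 2 of HFD Sirt3 AKI was left out, those of the other 2 when any library but replicates 1 and 2 of that group was (adjusted p from 0.0535 to 0.176 over all of these). The 19 that did not pass ran from -0.37 to 2.82. The upper end is miR-9-5p (adjusted p = 0.0754), whose values by library are given above. In HFD Sirt3 AKI over chow WT 6 rose, 5 fell and 11 did not pass, where 39.9% of all tested microRNAs passed, with a median of 0.45 against 0.058. The 5 that fell were miR-187-3p, miR-301a-3p, miR-221-3p, miR-210-3p and miR-181b-5p.

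The microRNAs most like each of the 4 were found by the Pearson correlation of log2 normalised CPM over the 9 libraries, among 405 known microRNAs. The libraries fall into groups and share their depth, so these values describe a shared pattern of group means. Nearest to miR-146a-5p were miR-361-5p (r = 0.989), miR-223-3p (0.988) and the red cell microRNA miR-486a-5p (0.986). Nearest to miR-155-5p were miR-10a-3p (0.987), miR-5126 (0.985) and miR-10b-3p (0.983). miR-10a-3p stood at a mean of 381 normalised CPM on chow, 63.9 for HFD WT and 35.3 for HFD Sirt3 AKI. miR-132-3p had miR-125b-5p (0.984), miR-92b-3p (0.970) and miR-199a-3p (0.965) nearest to it. miR-146b-5p had miR-199a-3p and miR-199b-3p (0.970 each, with identical counts in every library) and miR-125b-5p (0.956), so 2 neighbours are shared with miR-132-3p.

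Markers of blood and tissue cells also moved between the groups. All markers of each list were detected in every group, and none was at 0. The member said to lead a list is the most abundant over all libraries. The summed normalised CPM of a list is given as the lowest and highest library of chow WT, HFD WT and HFD Sirt3 AKI. Markers listed as myeloid (3, led by miR-142a-3p) stood at 15133 to 15631, 19700 to 21619 and 13611 to 18543. Lymphocyte markers (3, led by miR-150-5p) stood at 6755 to 7148, 11339 to 12392 and 12822 to 16006. Both lists were higher in HFD WT than in chow WT on this scale, with miR-146a-5p and against miR-155-5p. Per 1000000 of the plain library total the order of the myeloid sums turned, to 19340 to 20800 on chow and 16217 to 16678 in HFD WT, and the lymphocyte sums of these groups overlapped, at 8633 to 9511 and 8586 to 10309. Members of these lists also differed: miR-181a-5p was lower on the diet, at 1487, 1906 and 1396 normalised CPM against 2416, 2425 and 2872 on chow, and miR-142a-5p overlapped, at 5832 to 6653 on chow and 5385 to 6456 for HFD WT. By plain total miR-223-3p was higher on the diet, against the sum of its myeloid list, with mean TPM of 2470 on chow and 4481 for HFD WT.

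Endothelial markers (2, led by miR-126a-3p) stood at 20325 to 23160, 39647 to 41391 and 27157 to 28305, but overlapped between chow WT and HFD WT by plain total, at 25976 to 30818 and 30506 to 32985. Erythroid markers (4, led by miR-16-5p) stood at 218938 to 234344, 438440 to 516245 and 267274 to 395957. Per 1000000 of the plain total they were 286334 to 303788, 364768 to 390880 and 292307 to 369740. These 4 microRNAs, with miR-16-5p the largest in every library, thus took up much of each library and weigh on any scaling by totals. Members of the erythroid list differed as well. In normalised CPM miR-16-5p and miR-486a-5p were higher in every HFD WT library than in any chow WT library. miR-451a overlapped between these groups, at 38950 to 50565 on chow and 45146 to 72673 for HFD WT. So did miR-144-3p, at 232 to 301 and 244 to 348. Adipocyte markers (4, led by miR-378a-3p) stood at 6807 to 7335, 3961 to 5985 and 4334 to 4877, lower in HFD WT than in chow WT. Hepatocyte markers (3, led by miR-122-5p) stood at 11159 to 13945, 7616 to 8018 and 9294 to 31775, and epithelial markers (5, led by miR-205-5p) at 10474 to 11869, 4036 to 5416 and 6890 to 15167. On chow other members exceeded these leading ones, with miR-192-5p at 6807 to 7491 and miR-429-3p at 4366 to 4783, and miR-205-5p was higher on the diet while its list was lower. Of the hepatocyte markers only miR-192-5p was separated between chow WT and HFD WT, where it stood at 2612 to 3046. miR-122-5p overlapped, at 3370 to 6507 on chow and 4145 to 4758 for HFD WT, as did miR-194-5p, at 504 to 681 and 443 to 522. The part of any of these cell types in the changes of the 4 microRNAs was not tested.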

How the data were processed

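The 4 microRNAs, the inflammation list and the marker lists were chosen with earlier results of these data known. Per the deposited tables, the authors gave whole-number read counts for each mature microRNA and library, and TPM, which is the count over the library total times 1000000. The submitters' processing notes list Bowtie 0.12.2 and mm8 without saying what each was used for. How adapters were trimmed, which microRNA reference was used and how reads were counted is not given in the sources used here. Serum was treated with a precipitation reagent, per the labels' protocols, and the pellet was taken as vesicles.

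After filterByExpr (minimum count 10), counts were scaled by TMM and fitted over all 9 libraries with group means by edgeR 4.0.16 in R 4.3.3. The fit was also run on simulated counts with known rises and falls in balance. That setting cannot test the choice of scaling, and no conclusion is drawn from it. Calls are at an adjusted p below 0.05 over 414 microRNAs. Ratios within libraries had a two-sided exact permutation test. DESeq2 1.42.0 and limma 3.58.1 on log2(TPM + 1) were alternatives, with other scalings, no filter, batch, the replicate block and leaving out each library. Named were the 4 microRNAs, list members, the 3 nearest patterns of each, and the most abundant marker of each list. The lists for erythroid, myeloid, lymphocyte, hepatocyte, endothelial, brain, adipocyte and epithelial cells are reported as sums. No 2 libraries of a group agreed within sampling noise. Sequences were matched by name in RefSeq for 4 of 4 microRNAs and 23 of 27 of the list, on another build than the one named, and gene overlaps come from GENCODE.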

Additional observations from a re-analysis of the deposited data

How the results depend on the processing

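Over 20 alternatives, miR-146a-5p and miR-155-5p kept their direction and their calls in both comparisons with chow WT, and the pseudocount of 0.5 changed no direction of a ratio. One scaling, library totals without the erythroid markers and miR-486b-5p, was chosen after seeing the data. Depth limits the chow WT values, above all those of miR-132-3p. The cause of the changes below was not tested.

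In HFD WT over chow WT, miR-132-3p missed the threshold at 0.18 with library totals, 0.37 without erythroid markers in the total, 0.54 also without miR-486b-5p, 0.81 with DESeq2 and 0.19 with limma. miR-146b-5p passed at 0.96 without the filter, 0.66 with only the 2 groups, 0.74 with the batch label as a term and 0.79 in the larger batch. The inflammation list had 2 higher and 7 lower with library totals and with limma, 3 higher without erythroid markers, and 7 lower with only the 2 groups.

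In HFD Sirt3 AKI over HFD WT, the number called was 24 with DESeq2 size factors, 62 with DESeq2, 3 with only the 2 groups, 1 with the batch term and 23 in the larger batch. miR-146a-5p turned positive at 0.031 with DESeq2 size factors, 0.23 with library totals, 0.14 without erythroid markers, 0.13 also without miR-486b-5p, 0.030 with DESeq2, 0.23 with limma, 0.053 with 2 groups, 0.10 with the batch term and 0.24 in the larger batch. There miR-146b-5p was -0.31 and -0.16, miR-132-3p -0.055 with the batch term, miR-132-5p -0.20 and -0.060, and miR-9-5p -1.12 and -0.98. List calls, higher and lower, were 1 and 0 with DESeq2 size factors, 4 and 0 with library totals, 3 and 0 under either erythroid-free total, 5 and 0 without the filter, 7 and 2 with DESeq2, 2 and 0 with limma and in the larger batch, and 0 and 0 with 2 groups and with the batch term.

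In HFD Sirt3 AKI over chow WT, miR-146b-5p missed at 0.84 with library totals, 0.90 without erythroid markers, 0.70 with limma and 0.43 with the batch term, where miR-132-3p missed at 0.85 and 2 of the 4 passed. List calls were 10 higher and 3 lower without the filter and 2 higher with limma.

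Leaving out each library in turn gave, for HFD WT over chow WT, 0.83 to 1.03 for miR-132-3p, 0.61 to 0.99 for miR-146b-5p and -0.28 to 0.0036 for the log2 ratio of miR-146b-5p to miR-132-3p. For HFD Sirt3 AKI over HFD WT it gave 13 to 102 called (102 without HFD Sirt3 AKI replicate 1), 0 to 2 of the 4 microRNAs, 0 to 5 higher and 0 to 2 lower in the list, 0.26 to 0.89 for miR-132-3p, -0.16 to 0.077 for miR-146a-5p, 0.0091 to 0.76 for miR-146b-5p and -0.87 to 0.064 for the ratio of miR-146a-5p to miR-146b-5p. For HFD Sirt3 AKI over chow WT it gave 0.87 to 1.503 for miR-146b-5p, 6 to 10 higher in the list, and log2 ratios of -0.49 to 0.36 for miR-146a-5p to miR-132-3p and -0.18 to 0.75 for miR-146a-5p to miR-146b-5p.

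The main fit used no pairing by replicate number. Deviations of same-numbered libraries correlated at 0.11, 0.0074 and -0.035 between HFD WT and chow WT. They correlated at -0.0069, -0.080 and -0.034 between HFD Sirt3 AKI and HFD WT, and at 0.062, 0.19 and 0.047 between HFD Sirt3 AKI and chow WT. With 3 libraries per group these values cannot decide whether replicate numbers pair the samples. With the replicate block, miR-146b-5p passed in HFD WT over chow WT at 0.78 (adjusted p = 0.041), and the list had 0 higher and 1 lower in HFD Sirt3 AKI over HFD WT.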
